A study of Mus musculus with 15 samples.

Results

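The 6 culture-adapted fibroblast lines of the series were compared here by genotype: 3 lines that lacked CIZ1 (S10, S11 and S12) against 3 wild-type (WT) lines (S07, S08 and S09), out of 15 samples in all. The lines were chosen by their labels alone. RNA was measured by poly(A) RNA-seq and is given as FPKM, a level scaled to transcript length and to the library's mapped fragments, for each transcription unit (a locus assembled from the reads, which can hold more than 1 gene). Every line was female, C57BL/6, untreated and collected at 80% confluence. In the CIZ1 null lines a neomycin gene trap downstream of the first exon disrupted Ciz1 in every cell, in mice made from a single embryonic stem cell clone. A culture-adapted line is a population that grew out of embryonic fibroblasts after prolonged passaging, and each of the 6 came from a different embryo, so differences between lines of a genotype include those of separate embryos and separate adaptations. WT and CIZ1 null primary fibroblasts of the same 6 embryos, not past passage 5, served as the reference for what preceded adaptation; the third primary CIZ1 null population (S06) is labelled inducible and had not been induced. The study's list of cell lines gives the line S11 as carrying an inducible CIZ1 transgene, also uninduced, while its label gives only the CIZ1 null genotype.

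CIZ1 is a nuclear matrix protein that takes part in the initiation of DNA replication and, in female cells, holds Xist RNA in place on the inactive X chromosome. Fibroblasts in long culture pass through slowing proliferation before fast-growing variants take over, and the genes that such a passage bears on include those of the cell cycle, the Trp53 and Cdkn2a arrest pathway, secreted inflammatory and matrix proteins, and stress responses. Cell cycle genes come in waves: genes for DNA synthesis peak in S phase, largely through E2F sites in their promoters, and genes for mitosis peak in G2 and M phase, largely through the CHR element. In bulk RNA, fewer cells in a phase and less RNA per cell cannot be told apart.

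Ciz1, on chromosome 2 (GRCm38, 32308345 to 32381938), was measured at 24.1, 19.3 and 18.7 FPKM in the WT lines S07, S08 and S09 and at 0.0546, 0.724 and 0.319 FPKM in the CIZ1 null lines S10, S11 and S12. All 3 null lines lay far below all 3 WT lines, and the highest null value was that of S11. On the log2(FPKM + 1) scale Ciz1 fell by 4.01 (SE 0.264, adjusted p = 0.0448, limma with Benjamini-Hochberg adjustment). It was the only transcription unit called at an adjusted p under 0.05 among the 19976 tested, or 0.00501%; without S11 4 units were called (0.0201%), Ciz1 among them, without any other single line Ciz1 had an adjusted p of 0.0699 to 0.274, and without S08 1 other unit, Gm5566, was called (0.005%). At an unadjusted p under 0.05 there were 804 units (4.02%), 365 of them higher (1.83%) and 439 lower (2.2%) in the CIZ1 null lines, and at an unadjusted p under 0.005 there were 61 (0.305%), 39 higher (0.195%) and 22 lower (0.11%). Both totals, 804 and 61, were smaller than evenly spread p-values would give at those thresholds. The median change over all units tested was 0.03. Because no unit other than Ciz1 passed the adjusted test, the genes that follow are described by their values, as a ranking and not as calls. The genes of the ranking were picked for an unadjusted p under 0.005 and groups without overlap, so their separation was fixed by the choice.

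**Figure D1:**
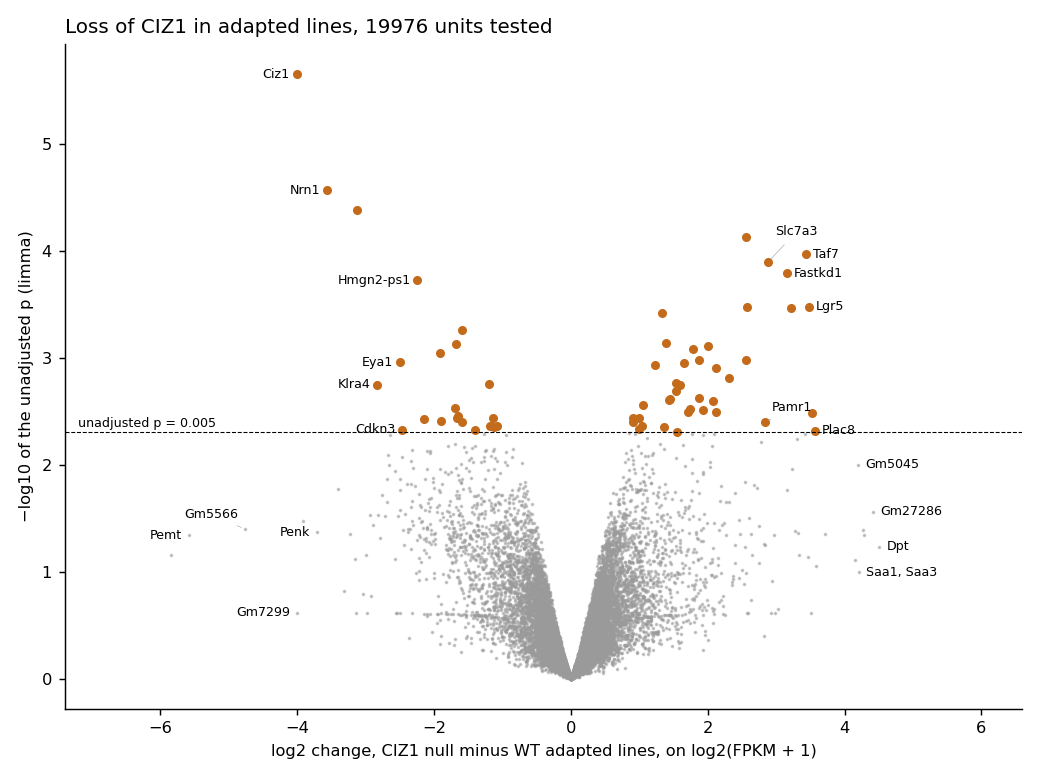
Change between CIZ1 null and WT culture-adapted lines on the log2(FPKM + 1) scale (x axis) against the unadjusted limma p as -log10 (y axis), with 1 point for each of the 19976 units tested and units at an unadjusted p under 0.005 in orange. Ciz1 stands alone at the top left with a change of -4.01, and the 61 orange units lie on both sides.

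Ciz1 shares its locus with other units. 45 units within 500 kb of it were tested, with changes from -1.73 to 1.35 and a median of 0.06. Besides Ciz1 itself 1 of them had an unadjusted p under 0.05, where 4.02% of all units did, so the neighbours did not stand out. This was a unit of 1110008P14Rik at the same locus, at 39.1, 35.5 and 34.6 FPKM in WT and 19.6, 23.4 and 22.2 FPKM in null lines, without overlap. Its change was -0.72 with an unadjusted p of 0.00964 in limma. The other 1110008P14Rik unit there was at 22.6, 18.6 and 15.9 FPKM in WT and 8.20, 16.5 and 11.6 FPKM in null lines. Its groups overlapped, with an unadjusted p of 0.0693 in limma. The lowest change in the window was that of Lcn2, a secreted siderophore-binding protein, at 438, 346 and 454 FPKM in WT and 156, 414 and 28.2 FPKM in null lines, where S11 lay within the WT range.

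The genes that ranked first among the lower ones have varied functions. Nrn1, a membrane-anchored neurite growth protein, stood at 47.2, 28.8 and 36.8 FPKM in the WT lines and at 2.26, 3.63 and 1.15 FPKM in the null lines. The groups were far apart, the change was -3.57 (SE 0.348), and the adjusted p of limma was 0.273. In the primary cells Nrn1 lay between 4.43 and 10.4 FPKM in WT and between 4.46 and 4.75 FPKM in null populations. The WT adapted lines thus stood far above the primary range and the null adapted lines somewhat below it. The difference between the adapted and the primary change was -3.08, with an unadjusted p of 3.57e-05 in limma. That fit did not pair the primary and adapted samples of an embryo.

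Klra4, a lectin-like receptor known from natural killer cells, was above the primary level in both genotypes, and more so in WT, with 20.4, 14.4 and 67.5 FPKM in WT lines, 2.15, 3.98 and 3.01 FPKM in null lines and no more than 0.6 FPKM in any primary population. Its change was -2.83 (SE 0.562), a value made uncertain by the near-identical members of the Klra family. Eya1, a transcriptional coactivator with phosphatase activity, was at 14.5, 12.1 and 6.53 FPKM in WT lines and 1.93, 0.143 and 1.54 FPKM in null lines, a change of -2.50. Both genes were lower in all 3 null lines than in any WT line, as the rule for the ranking required. Uchl1, a deubiquitinating enzyme abundant in neurons, was at 20.5, 34.4 and 59.8 FPKM in WT and 9.84, 9.32 and 3.70 FPKM in null lines, a change of -2.15. Uchl1 was lower in the primary null cells as well, with a change of -0.77 and no overlap of the groups. Of 10 markers of neural and glial cells found, only Map2, which binds microtubules in neurons, was tested. It was at 23.6, 3.42 and 0.566 FPKM in WT lines and 0.0182, 0.18 and 0 FPKM in null lines. Its change was -2.38, with an unadjusted p of 0.0402 in limma, and S07 held most of the WT level. Without S07 Map2 did not pass the filter. Sox10, Rbfox3, Gfap and Elavl3 were at 0 in all 6 lines.

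Other genes of this ranking act in the cytoskeleton or at chromosomes. Pdlim1, an adaptor of actin stress fibres, was at 53.8, 78.0 and 90.2 FPKM in WT lines and 34.9, 19 and 15 FPKM in null lines, a change of -1.70. Cenpw, a centromere protein, was at 8.33, 7.44 and 7.26 FPKM in WT lines and 2.86, 1.15 and 1.36 FPKM in null lines, a change of -1.69. The WT values of Cenpw were tight and the null values lay well below them. Cdkn3, a phosphatase that acts on cyclin-dependent kinases, had a change of -2.47, with 0.17 FPKM in S11 as its lowest value. Hmgn2-ps1, a pseudogene, was at 4.41, 4.64 and 2.49 FPKM in WT and listed at 0 in all null lines. Xkr5, a membrane protein, and Gm22551 sit at 1 locus and had changes of -1.91 and -1.66, so they are not independent of each other.

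In the other direction the ranking held Lgr5, a receptor for R-spondins that marks several kinds of adult stem cell. It was at 0, 0.0695 and 0.174 FPKM in the WT lines and at 22.2, 4.59 and 12.3 FPKM in the null lines. WT lines were thus next to nothing and all null lines clearly measured, with a change of 3.47 (SE 0.512) and an adjusted p of 0.618 in limma. The primary null cells also had more Lgr5, at 11.2, 12.4 and 7.61 FPKM against 5.74, 1.84 and 3.19 FPKM in WT. Lgr5 acts in the Wnt pathway, and of 24 tested genes for Wnt ligands, other receptors and antagonists none had an unadjusted p under 0.05, with a median change of -0.04 for the list.

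Plac8, a small cysteine-rich protein, was at 0.767, 2.90 and 3.75 FPKM in WT lines and 146, 19.2 and 17.2 FPKM in null lines, a change of 3.57 (SE 0.857). The primary cells lay between 28.5 and 104 FPKM over both genotypes, with S10 above that range, S11 and S12 below it and the WT lines far below it. Klf4, a transcription factor that restrains proliferation in several cell types, was at 5.19, 9.97 and 8.25 FPKM in WT and 18.2, 30.5 and 27.2 FPKM in null lines, a change of 1.59, and again the primary cells of both genotypes (21.2 to 43.0 FPKM) were close to the null lines. Fuom, a fucose mutarotase, Prkg1, a cGMP-dependent kinase, and Chrd, a secreted BMP antagonist, had changes of 1.87, 1.72 and 1.54. Bdh1, the ketone body enzyme, was at 0.801, 0.245 and 0.225 FPKM in WT and 5.21, 3.50 and 3.00 FPKM in null lines, all of them below the primary level of 8.02 to 22.8 FPKM.

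Other genes stood above the primary level in the null lines. Slc7a3, a transporter of cationic amino acids encoded on the X chromosome, was at 1.75, 0.625 and 0.296 FPKM in WT lines and 9.28, 16.5 and 11.9 FPKM in null lines, against 1.74 to 3.63 FPKM in all primary populations. Its change was 2.88 (SE 0.361, adjusted p = 0.424 in limma). It differed from the primary change by 2.86, with an unadjusted p of 7.05e-05 in limma, again without pairing by embryo. Gpm6b, a proteolipid-family membrane protein, was at 9.40, 13 and 19 FPKM in WT and 86.0, 30.9 and 85.7 FPKM in null lines, and at no more than 5.73 FPKM in primary cells, so that lines of both genotypes were above the primary level. The change was 2.12, with S11 the lowest of the null lines. In the other Gpm6b unit at the same locus S11 was again the lowest null line.

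Further down the ranking came genes of the matrix and of the membrane skeleton. Fbln1, an extracellular matrix glycoprotein, was at 15.9, 26.4 and 33.8 FPKM in WT and 69.5, 65.9 and 68.3 FPKM in null lines, a change of 1.45. The 3 null values were nearly equal, and the primary null cells were higher than the primary WT cells too, by 0.71. Ezr, which links actin to the membrane, and Lima1, an actin-bundling protein, had changes of 1.55 and 0.90. Igsf10, at 7.95, 4.82 and 4.14 FPKM in WT and 16.4, 18.4 and 43.4 FPKM in null lines, and Pamr1, at 0, 4.47 and 0.183 FPKM in WT and 15.9, 12.7 and 9.31 FPKM in null lines, had changes of 1.94 and 2.84. Tsc22d3, a glucocorticoid-induced leucine zipper protein on the X chromosome, was at 7.07, 8.16 and 8.77 FPKM in WT and 16.5, 20.8 and 23.4 FPKM in null lines, a change of 1.23. Taf7, Fastkd1 and Gm14173 were listed at 0 in all WT lines and were measured in every null line, at 5.25 to 18.1, 4.26 to 14.4 and 1.74 to 3.02 FPKM. At an unadjusted p under 0.005 the ranking held 39 named genes in all, 23 of them higher and 16 lower in the null lines.

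**Figure D2:**
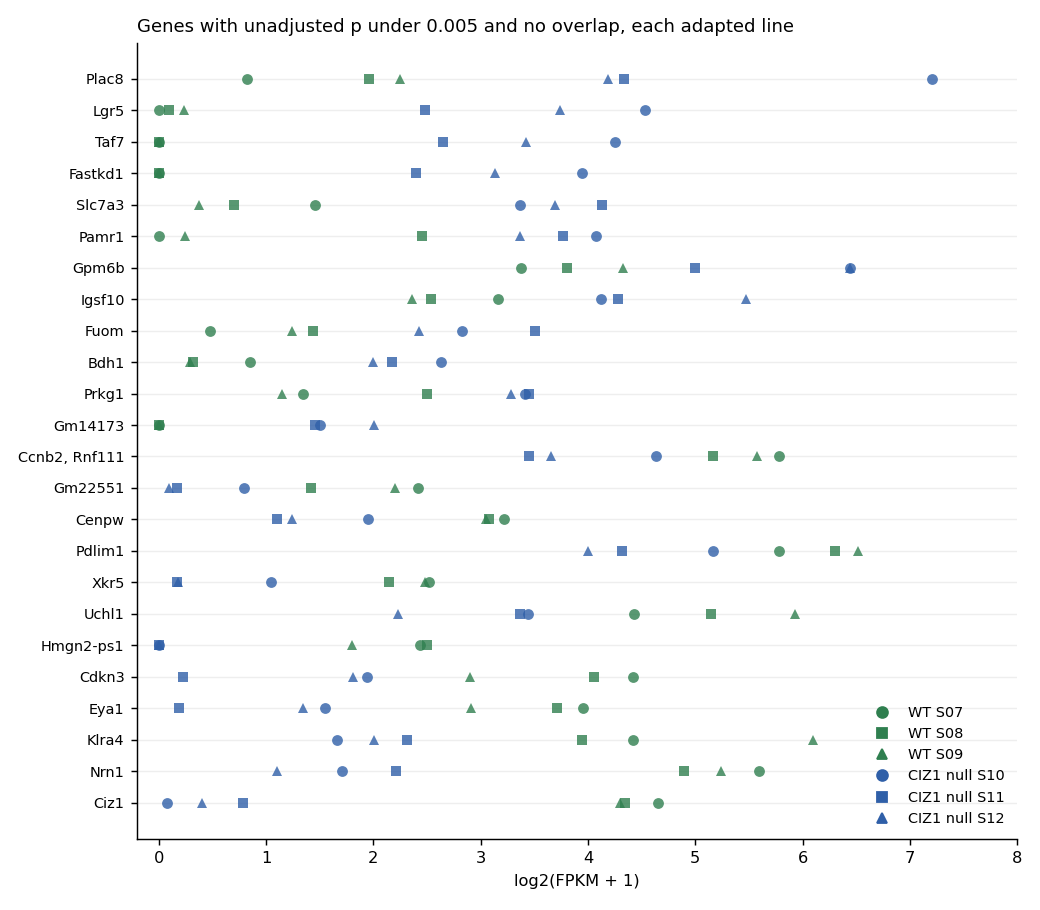
FPKM in each of the 6 culture-adapted lines, on a log2(FPKM + 1) axis, for the genes that ranked first in each direction, with WT and CIZ1 null lines in different colours. The genes were picked for groups that do not overlap, so the gap in each row follows from the choice. They run from Nrn1 (28.8 to 47.2 FPKM in WT, 1.15 to 3.63 in null) to Lgr5 (0 to 0.174 in WT, 4.59 to 22.2 in null).

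Among the lists with at least 10 genes tested, the median farthest from 0 was that of mitosis. All 30 genes of the mitosis and G2/M list were tested; none was called, 22 had an unadjusted p under 0.05 and were lower in the null lines, and none at that p was higher, where 2.2% of all units were lower at that p. The median change was -2.26, against 0.03 over all units, and in 17 of the 30 every null line lay below every WT line, against 3.74% of all units. The 3 null lines were not alike: relative to the WT mean the list's median was -0.45 in S10, -3.69 in S11 and -2.70 in S12, and the number of its genes more than 1 log2 unit below that mean was 3, 29 and 30.

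Cyclin genes and their activators illustrate this. Ccnb2, the cyclin B2 gene, which shares its unit with Rnf111, was at 53.9, 35.0 and 46.6 FPKM in WT and 23.9, 9.96 and 11.6 FPKM in null lines. Its change of -1.59 (SE 0.368) had an unadjusted p of 0.00401, the smallest in the list. Ccnb1, cyclin B1, was at 58.9, 59.5 and 43.1 FPKM in WT and 31.0, 1.18 and 6.24 FPKM in null lines, so S10 lay below WT by a small margin and the other null lines by a wide one. Cdk1, the kinase that cyclin B activates, was at 275, 304 and 268 FPKM in WT and 294, 23.1 and 49.9 FPKM in null lines. S10 was within the WT range for Cdk1, and the unadjusted p was 0.0554. Cdc25c, a phosphatase that activates Cdk1, was listed at 0 in S11 and had a change of -2.06.

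Cdc20, which activates the anaphase-promoting complex, was at 49.1, 53.8 and 24.8 FPKM in WT and 18.9, 2.23 and 3.24 FPKM in null lines, a change of -2.67 (SE 0.715, unadjusted p = 0.00813 in limma). The spindle checkpoint kinase gene Bub1b had a change of -2.50 and the checkpoint gene Mad2l1 one of -1.96. The kinesin gene Kif20a, needed for cytokinesis, was at 51.9, 68.7 and 67.6 FPKM in WT and 34.5, 4.85 and 8.28 FPKM in null lines, and Ect2, which directs the cleavage furrow, at 27.1, 35.0 and 21.4 against 15.2, 1.61 and 3.37 FPKM. Cenpa, the centromeric histone, had the lowest change of the list at -3.40, with 77.6, 99.1 and 63.5 FPKM in WT and 36.0, 0.482 and 6.78 FPKM in null lines. In each of the genes whose values are given here S10 lay under the WT lines and S11 and S12 far under S10. For the proliferation marker Mki67 the values were 37.1, 25.0 and 11.3 FPKM in WT and 22.3, 0.34 and 2.02 FPKM in null lines, where S10 lay inside the WT range. The exception was Nusap1, a spindle protein gene, at 25.6, 54.0 and 11.1 FPKM in WT and 7.84, 78.9 and 7.44 FPKM in null lines, the only one of the 30 in which S11 was high.

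Genes of DNA replication and S phase were low in S11 and S12 and not in S10. All 39 that were found were tested, 5 of them had an unadjusted p under 0.05, all lower in null lines, where 2.2% of all units were, and the median was -1.14. Against the WT mean the list's median was 0.17 in S10, -2.22 in S11 and -1.69 in S12. Ccna2, cyclin A2, was at 50.1, 49.7 and 30.9 FPKM in WT and 34.9, 1.92 and 3.11 FPKM in null lines, a change of -2.53 with the unadjusted p of limma at 0.0302. Mcm5, a subunit of the replicative helicase, was at 24.8, 28.8 and 42.1 against 30.6, 2.09 and 4.37 FPKM. Uhrf1, which carries DNA methylation through replication, was at 22.3, 23.5 and 20.4 against 18, 0.703 and 4.36 FPKM and was the only gene of the list in which the groups did not overlap. Rfc3, a subunit of the clamp loader, was at 18.9, 19.99 and 24.6 against 19.6, 7.60 and 6.98 FPKM, with S10 inside the WT range. The sliding clamp gene Pcna (change -0.63) and E2f1 (-0.22) were nearer to WT, and Rfc4 was the only one with a change above 0, at 0.24.

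The counts at a low p depended on which lines entered the fit. Without S10, 29 of the 30 mitosis genes were lower at an unadjusted p under 0.005, where 1.72% of all units were, with a median of -3.15. In the same fit 36 of the 39 S phase genes were lower at an unadjusted p under 0.05, where 4.79% of all units were, with a median of -1.89. None of them was called, since 0 units (0.0%) had an adjusted p under 0.05 in that fit, with 1602 at an unadjusted p under 0.05. Without S07, S08, S09, S11 or S12 the mitosis genes lower at an unadjusted p under 0.05 numbered 10, 8, 13, 10 and 8, and the S phase genes 0, 0, 1, 0 and 0, where 1.47%, 1.02%, 2.7%, 1.39% and 1.05% of all units were lower. Over all units, leaving out S10 raised the number at an unadjusted p under 0.005 from 61 to 405 (2.02%), of which 345 were lower, while leaving out S09 or S11 gave 96 (0.48%) or 95 (0.477%).

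The same lists in primary cells had other values. No mitosis gene had an unadjusted p under 0.05 between primary CIZ1 null and WT cells, where 6.26% of all units did, and the medians were 0.12 for mitosis and 0.15 for S phase. The difference between the adapted and the primary change was lower at an unadjusted p under 0.05 for 22 of the 30 mitosis genes and 10 of the 39 S phase genes, where 2.48% of all units were, with a median of -2.44 for mitosis. No unit was called for that difference (0.0% of 20046 units, with 928, or 4.63%, at an unadjusted p under 0.05). Without S10 234 of 20086 units were called, 221 of them lower, while 7 were without S11 and 0 without S12. The first of the 234 in unit order, not ranked by change, included the cell cycle genes Kif14, Aspm, Nuf2, Nek2, Mcm6, Prim1 and Cdk1. Others among them were Cr1l and Smpdl3a.

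**Figure D3:**
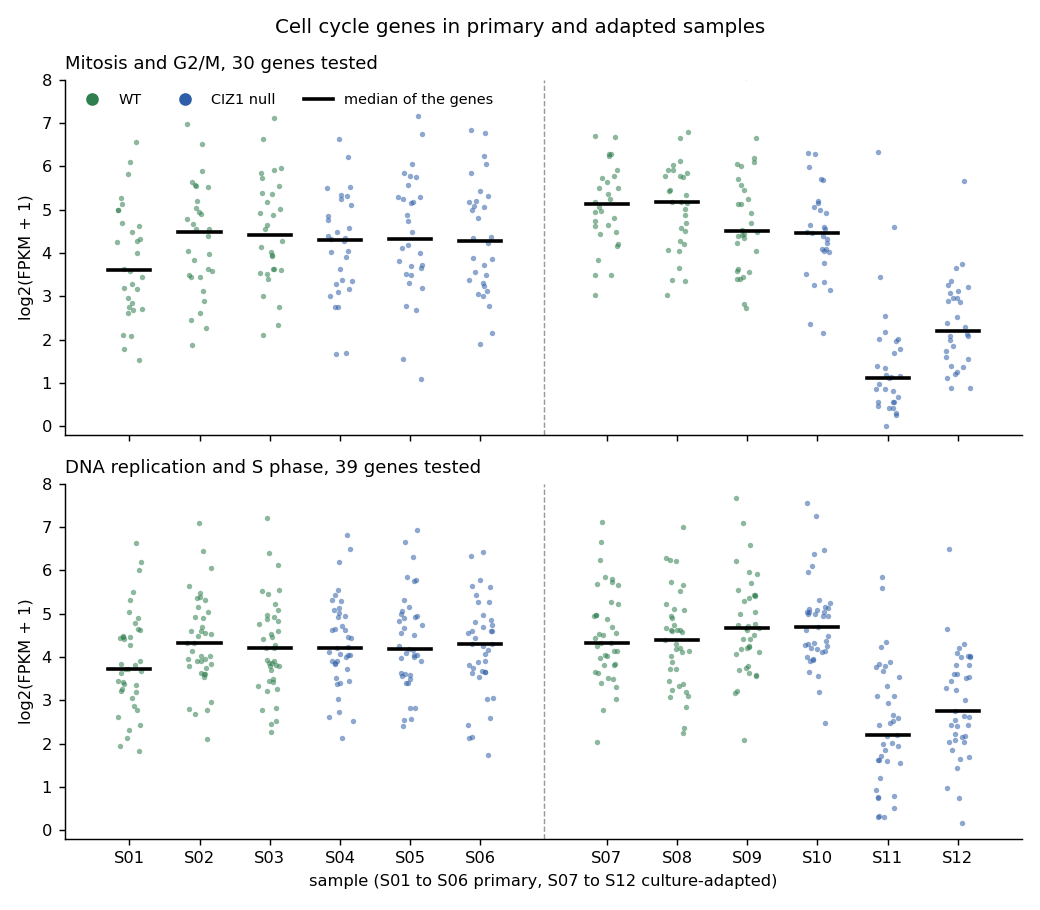
Level of each mitosis gene (upper panel) and S phase gene (lower panel) as log2(FPKM + 1), with 1 point for each gene in each of the 12 primary and culture-adapted samples and a bar at the median of the genes. The median mitosis gene is at 33.9, 35.0 and 21.7 FPKM in S07, S08 and S09, at 21.1 FPKM in S10, and at 1.17 and 3.62 FPKM in S11 and S12, while the 6 primary samples lie between 11.1 and 21.2 FPKM.

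The elements named above were looked for in the promoters of these genes. In the RefSeq windows of 300 bases (250 before to 50 after each annotated start, GRCm38.p6), searched on both strands, the CHR letters TTTGAA were found in 21 of the 28 windows (75.0%) that matched 26 of the 30 mitosis genes, and in 17.9% of all 32851 windows; CCAAT was in 23 of the 28 (82.1%) and in 37.4% of all. Any of the E2F letters TTTCCCGC, TTTGGCGC, TTTCGCGC or TTTGCCGC were in 12 of the 38 windows (31.6%) that matched 31 of the S phase genes, and in 2.26% of all. A window with more than 1 motif was counted for each. These are matches of letters, not measured sites. The CHR matches printed below for Ccnb2 and Ect2 lie at -167 and -114 bases from an annotated start. Both genes have another TTTGAA nearer to it, at 4 and 15 bases, and that of Cdc20 lies at -18. Stretches of 30 bases from genes named above are shown 5' to 3' on the gene's strand because they carry the shared element, with its letters in capitals, first the CHR and then the E2F letters:
Cdc20, chr4:118437344-118437373, minus strand: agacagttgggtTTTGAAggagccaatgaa
Ccnb2, chr9:70421704-70421733, minus strand: cagggactagaaTTTGAAaataagactgta
Ect2, chr3:27153975-27154004, minus strand: ccgtttaccggaTTTGAAacacactcacaa
Mcm5, chr8:75109344-75109373, plus strand: agcgccaagaacTTTCGCGCcaaaacgtcc
Uhrf1, chr17:56304116-56304145, plus strand: gcccgagtcgggTTTCGCGCgcccaggcgt
Rfc3, chr5:151651201-151651230, minus strand: gacgtcgcacgcTTTCGCGCtcgcgggaaa

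The integrated stress response was the list with the next largest set of genes at a low p, and these were higher in null lines. In this pathway, kinases that sense amino acid shortage or misfolded protein raise translation of the transcription factor ATF4, which turns on genes for amino acid synthesis, transport and redox balance through an amino acid response element. Of its 23 genes tested, none was called, 8 had an unadjusted p under 0.05 and were higher in null lines (background 1.83%), none was lower at that p, and all 23 changes were above 0, from 0.31 to 2.16 with a median of 0.92. In 6 of the 23 every null line lay above every WT line, against 4.55% of all units. The list's median gene was at 34.3 to 67.4 FPKM in the 6 primary samples. It was lower in the adapted WT lines, at 16.9 to 23.9 FPKM, and in S10, at 26.4 FPKM. S11 and S12, at 66.0 and 45.0 FPKM, lay within the primary range. Summed over the 24 genes found, S11 was above the primary samples, at 2557 against 1315 to 1845 FPKM.

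Among the transcription factors, Atf4 was at 118, 213 and 188 FPKM in WT and 237, 421 and 289 FPKM in null lines, without overlap, and its change was 0.87. Its relative Atf5 was at 52.8, 39.2 and 30.7 FPKM in WT and 97.7, 146 and 91.4 FPKM in null lines, a change of 1.43 (SE 0.301, unadjusted p = 0.00247 in limma). The primary samples had 139 to 256 FPKM of Atf5, so only S11 reached their range. Cebpg, a partner of ATF4, was at 8.47, 7.41 and 5.99 FPKM in WT and 11.4, 22.3 and 13.1 FPKM in null lines. S11 was the highest line for all of these. Atf3, another factor of the pathway, was scattered in both groups (0.214 to 7.41 and 0.463 to 29.9 FPKM).

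S11 was the highest line for the following targets too. Chac1, which degrades glutathione, was at 4.28, 13.1 and 13.2 FPKM in WT and 16.3, 61.9 and 30.4 FPKM in null lines, a change of 1.67. Sesn2, a leucine sensor that restrains mTORC1, was at 8.54, 7.77 and 10.1 against 12.5, 27.6 and 15.9 FPKM. Trib3, a pseudokinase that feeds back on ATF4, was at 2.43, 7.73 and 10.6 against 9.52, 66.0 and 26.7 FPKM. For Trib3 the groups met, since S10 lay below S09. Asns, asparagine synthetase, was at 34.4, 64.9 and 132 FPKM in WT and 116, 227 and 145 FPKM in null lines, with an unadjusted p of 0.0532. The serine synthesis genes Phgdh and Psat1 had changes of 0.61 and 0.65.

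S07 was the lowest and S11 the highest line of this list. Against the WT mean the medians were -0.88 in S07, 0.20 in S08 and 0.36 in S09, and 0.46 in S10, 1.50 in S11 and 0.79 in S12. Without S07, S11 or S12 the genes higher at an unadjusted p under 0.05 were 2, 2 and 3, where 1.84%, 2.65% and 1.09% of all units were. Without S08, S09 or S10 they were 6, 8 and 10, where 1.45%, 2.51% and 3.22% were, with the median between 0.61 and 1.17 throughout. In primary cells 6 genes of the list were higher at an unadjusted p under 0.05 (3.53% of all units were), with a median of 0.25, among them Chac1, Trib3, Sesn2 and Cebpg.

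**Figure D4:**
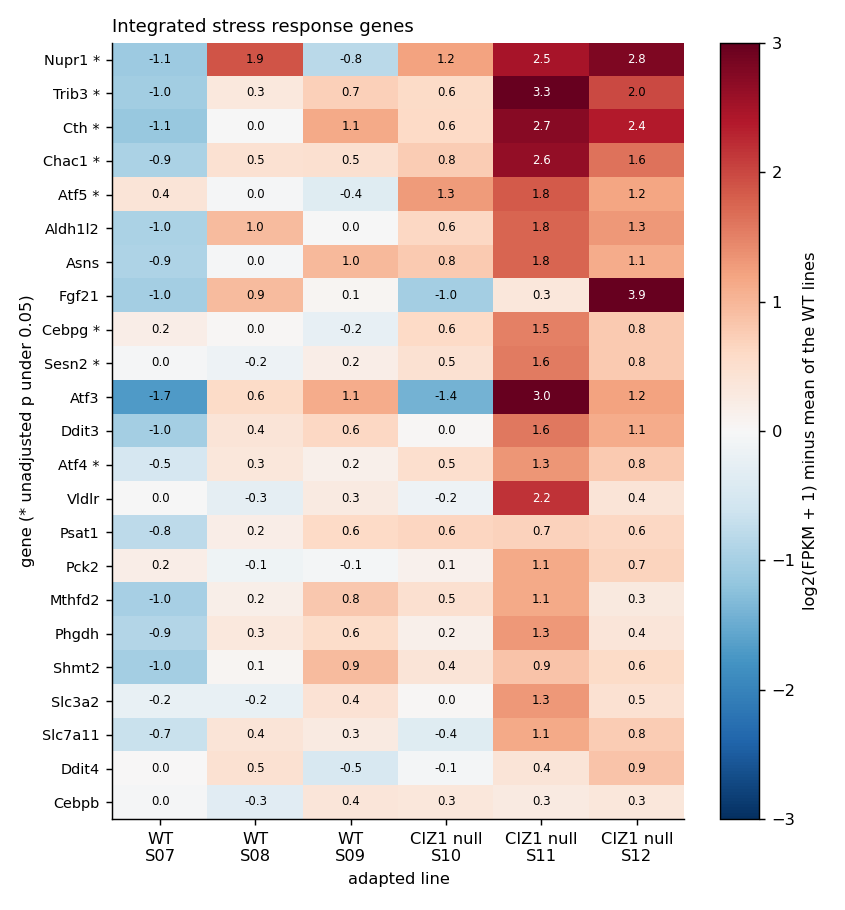
Heat map of the 23 integrated stress response genes (rows) in the 6 culture-adapted lines (columns), coloured by log2(FPKM + 1) relative to the mean of the WT lines and limited to 3 units either way, with a star for an unadjusted limma p under 0.05. S07 is the lowest column (median -0.88) and S11 the highest (median 1.50).

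The amino acid response element, searched as TGATGNAA on both strands, was in 9 of the 24 windows (37.5%) that matched 21 of the 23 genes, and in 3.97% of all windows. 3 of the matches are printed in the same way, those of Chac1 and Trib3 as the reverse complement, since there the element lies on the other strand:
Asns, chr6:7693215-7693244, minus strand: gtcccagccacaTGATGAAActtcccgcac
Chac1, chr2:119351037-119351066, plus strand: ccttccctgccgTTGCATCActcctgccag
Trib3, chr2:152344029-152344058, minus strand: attagctcaggtTTACATCAgccgggcggg

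No gene of any other list was called, and several of these lists had other counts or medians with a single line left out. Their counts at an unadjusted p under 0.05 stand against 1.83% of all units higher and 2.2% lower. Of 14 matrix metalloproteinase and inhibitor genes 2 were higher at that p (all units 1.83%), both of them collagen or matrix-degrading enzymes, with a list median of 0.55. Mmp3 was at 11.9, 10.0 and 55.1 FPKM in WT and 93.3, 534 and 195 FPKM in null lines, a change of 3.43 (SE 0.833, unadjusted p = 0.00512 in limma) without overlap. Mmp13 was at 0.308, 6.51 and 1.24 against 6.06, 894 and 24.6 FPKM, a change of 4.28 that became 2.26 without S11. Of 13 acute-phase and complement genes, Serping1, the inhibitor of complement C1, was higher at that p, with 2.01, 0.161 and 1.62 FPKM in WT and 50.5, 3.51 and 31.7 FPKM in null lines. Saa1 and Saa3, which share a unit, were at 3.84, 1589 and 1910 FPKM in WT and 4831, 4847 and 3982 FPKM in null lines, where the low value of S07 made up most of the change of 4.21 (unadjusted p = 0.102). Of 22 chemokine and cytokine genes only Ccl5 had an unadjusted p under 0.05, lower in null lines, and the median was 0.10.

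Of 32 lysosomal genes 3 were higher and 1 lower at an unadjusted p under 0.05 (all units 1.83% and 2.2%), with a median of 0.52. Without S12 none was higher at that p and the median was 0.10, and without S10 9 were (all units 3.22%), with a median of 0.83. Smpdl3a, a phosphodiesterase, was at 2.10, 2.89 and 3.13 FPKM in WT and 4.70, 42.8 and 50.7 FPKM in null lines, and Ctsl, cathepsin L, at 150, 230 and 295 against 360, 387 and 1145 FPKM. S12 stood out in this list: its median was 1.26 above the WT mean and 21 of its 32 genes were more than 1 log2 unit above it, while the medians of S10 and S11 were -0.27 and 0.30.

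Of 24 Trp53 target and Cdkn2a locus genes 2 were higher at that p (all units 1.83%), Sesn2 (which is also a stress response gene) and Gadd45a, with a median of 0.36 that became -0.03 without S08. Cdkn2a itself, which encodes p16 and p19ARF, differed from line to line in both genotypes, at 14.2, 273 and 39.9 FPKM in WT and 66.1, 0 and 171 FPKM in null lines. Cdkn1a, which encodes p21, was at 124, 18.1 and 127 FPKM in WT and 138, 90.1 and 107 FPKM in null lines, with overlap. For Cdkn2a, S11 was the lowest line and S12 the second highest. Any relation of Cdkn2a to the cell cycle genes was not tested.

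Chromatin lists had few genes at a low p. Of 16 Polycomb core subunits 1, Ezh2, was lower at an unadjusted p under 0.05 (all units 2.2%), with a list median of 0.02. The groups overlapped for Ezh2, and with any line but S10 left out no subunit was lower at that p. In S11 and in S12 1 subunit was more than 1 log2 unit below the WT mean, and in S10 0 were. Rnf2, the catalytic subunit of PRC1, was at 25.5, 16.8 and 25.6 FPKM in WT and 29.3, 36.3 and 33.8 FPKM in null lines, without overlap, with a change of 0.55 and an unadjusted p of 0.067. Xist, in a unit that also holds Ftx, was at 107, 32.1 and 37.6 FPKM in WT and 108, 71.9 and 113 FPKM in null lines; S07 was as high as the null lines, the change was 0.90 (SE 0.485) and the unadjusted p of limma was 0.107. Of 19 genes of X inactivation and CIZ1 partners 1, the cyclin A2 gene given above, was lower at that p, and of 11 X-linked genes that escape inactivation 1, Utp14a, was higher, with medians of -0.22 and -0.05. Without S10, 7 of the 19 were lower at that p (all units 4.79%), with a median of -0.42. This list shares members with the S phase list, Ccna2 among them, so the 2 are not independent. Without S07 the medians of the Polycomb and escape lists were 0.29 and 0.20. None of 27 imprinted genes had an unadjusted p under 0.05, and their median was 0.30.

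Genes of fibroblast identity and patterning also gave few differences. Of 43 developmental transcription factors Tbx15 was higher and Osr1 lower at an unadjusted p under 0.05 (median 0.20), and none of 23 Hox genes (median 0.41) or 25 collagen genes (0.05) reached it. Among 22 small leucine-rich proteoglycan and matricellular genes Igsf10 did; their median of 0.56 became -0.26 without S10. Of 26 interferon-stimulated genes none had an unadjusted p under 0.05, with a median of -0.35 that became 0.09 without S11 and -1.01 without S12, where 5 were lower at that p (all units 1.05%). In primary cells 13 were higher at that p in null populations (all units 3.53%), with a median of 0.64. Of the 11 Klra receptor genes 2 were tested, Klra4 being the lower one at that p.

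The labelled cell type was checked with its markers. All 16 fibroblast markers were tested, none had an unadjusted p under 0.05, and their summed level was 3619 to 8232 FPKM in WT and 3670 to 7231 FPKM in null lines. Of 11 smooth muscle and myofibroblast genes none reached that p either (median -0.46). Markers of other cell types had low sums, though not every member was near 0. Over WT and null lines 12 macrophage and leukocyte genes summed to 3.79 to 16.2 and 9.64 to 20.6 FPKM. The sums were 2.40 to 7.73 and 0.897 to 19.6 FPKM for 10 endothelial genes. For 10 epithelial genes they were 1.61 to 11.7 and 0.141 to 6.91 FPKM. For 10 skeletal muscle genes they were 1.13 to 2.44 and 1.29 to 2.24 FPKM. The 1 endothelial gene that passed the filter was at 17.95 FPKM in S10 and 0.0999 to 4.30 FPKM elsewhere. The 1 epithelial gene that passed was at 11.65 FPKM in S09, 6.42 FPKM in S11 and 0 to 1.08 FPKM elsewhere. The 3 macrophage and leukocyte genes that passed had a median of 0.783 FPKM in S07 to 5.93 FPKM in S09. Among the other members, Aif1, Tyrobp, Cldn5, Epcam, Krt5, Krt14, Myod1 and Myog were at 0 in all 6 lines, as were the 4 Y-linked genes. Of 6 chondrocyte, osteoblast and adipocyte genes tested, Runx2 was lower at an unadjusted p under 0.05, and the neural sum was 1.53 to 25.4 FPKM in WT, highest in S07, and 0.554 to 0.945 FPKM in null lines.

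**Figure D5:**
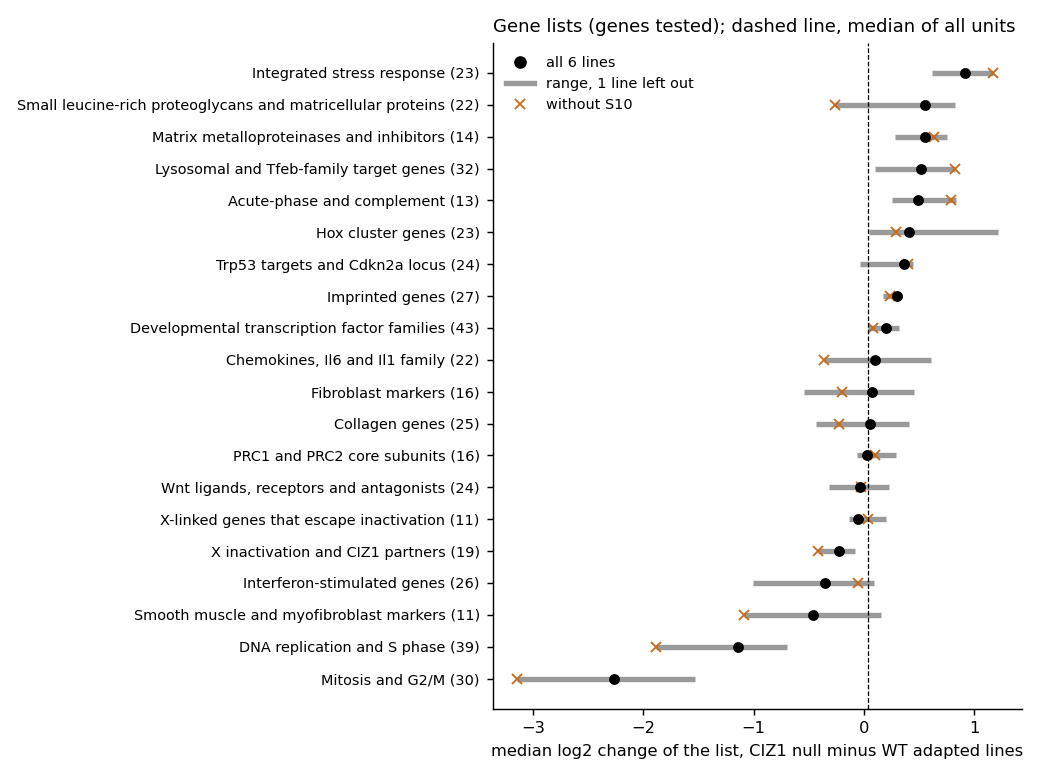
Median change between CIZ1 null and WT culture-adapted lines on the log2(FPKM + 1) scale for each list with at least 10 genes tested, with a bar for the range when each line is left out in turn and a cross for the value without S10. The mitosis median of -2.26 ranges from -3.15 to -1.53 and the integrated stress response median of 0.92 from 0.61 to 1.17.

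The likeness of lines within a genotype and between genotypes covered overlapping ranges. Across the units tested, Pearson's r between lines (a description, since units are not replicates) was 0.825 to 0.877 within WT, 0.822 to 0.883 within null and 0.811 to 0.909 between the genotypes, highest between S09 and S10. Relative depth, judged from the steps between low FPKM values, ran from 0.868 in S12 to 1.90 in S09, with S07 set to 1, and the 10 most abundant units took 6.35% to 8.16% of FPKM in the adapted lines. Across 18311 units tested in both stages, the change in adapted lines and the change in primary cells had an r of 0.139 and the same sign in 52.3%. In primary cells 0.741% of units had an unadjusted p under 0.005. The units with such a p in both stages were 5, those of Ciz1, Uchl1, Ide and 2 of Lgr5. Of the units with such a p in adapted lines 48 were tested in primary cells, and 33 of them had the same sign there. For 13 of the 48 the sign was the same and the primary unadjusted p of limma under 0.05. Of all units 6.26% had that p in primary cells, in either direction.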

How the data were processed

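Poly(A) RNA-seq libraries of the 6 culture-adapted lines were read from the authors' gene table; primary samples S01 to S06 were used for reference. The authors trimmed paired-end reads with Cutadapt 1.8.3, aligned them with HISAT2 2.0.5 to GRCm38, assembled transcripts with Cufflinks and Cuffmerge and deposited FPKM values from Cuffnorm (version 2.2.1 of the suite), per the labels and the study's methods. Whether counting used strand is not given in the sources used here, and 43012 of 65522 units share their locus with another, so reads at such loci may be split. A second deposited table, holding the authors' own comparisons (fold changes and p-values), was not used.

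Units with a mean of at least 1 FPKM over the 6 lines (19976) were tested on log2(FPKM + 1) with limma 3.58.1 in R 4.3.3 (lmFit, eBayes with trend, Benjamini-Hochberg), on the 6 lines alone; 30087 units were at 0 in all 6. A unit at 0 in one group passed only through the other. All fold changes are on this scale, which understates changes of low genes. The difference between stages was an interaction term over 12 samples, without the embryo as a block unless stated. Pseudocount, filter, scaling, weights, pooled fit and each line left out were alternatives. FPKM keep no read totals, so counting error was not computed, and the depth given is relative. Named genes were Ciz1, the 12 largest changes in each direction among units at an unadjusted p under 0.005 without overlap, the 6 largest in each direction whatever the p, Xist, and up to 4 examples a list; genes beyond these were named after their values were seen. Members and the 28 lists were chosen with earlier results of these data known. Each line's embryo was traced through per-line values identical to those listed by the study. Fits were tested on simulated data. Python 3.11.15 with NumPy 2.4.6, pandas 2.3.3 and Matplotlib 3.10.9 was used for the rest. P-values measure the spread between lines of different embryos.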

Additional observations from a re-analysis of the deposited data

Results flagged for a closer look

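Taf7, which encodes a subunit of the general transcription factor TFIID, differed in its change between the adapted and the primary stage. It was listed at 0 in the 3 adapted WT lines and was at 18.1, 5.25 and 9.73 FPKM in the adapted null lines, while in primary cells it was at 16.8, 25.6 and 7.10 FPKM in WT and 1.90, 1.92 and 6.84 FPKM in null populations. The changes on the log2(FPKM + 1) scale were 3.44 and -1.95, and their difference had an unadjusted p of 1.92e-05 and an adjusted p of 0.278 in limma. That fit did not pair the primary and adapted samples of an embryo. Taf7 lies in a locus with 46 units, where reads may be divided among overlapping units. No group had the 4 samples needed to look for a line that stands apart in single values.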

How the results depend on the processing

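The number of units called, 1 as reported, was 10 with all 12 samples in a single fit, 0 with a mean of at least 5 FPKM, 0 with no filter, 0 with a pseudocount of 0.1, 0 with quantile normalization and 0 to 4 with each line left out. The 61 units at an unadjusted p under 0.005 became 283 in the fit of 12, 106 with array weights, 106 with no filter, 30 at 5 FPKM and 46 to 405 with each line left out. For the difference between stages, 0 units called became 2 with a pseudocount of 0.1 (Taf7 and Hmgn2-ps1), 0 to 234 with each adapted line left out, and stayed at 0 with the embryo as a block. The smallest adjusted p of that difference in limma was 0.278 as reported and 0.939 with the embryo as a block. The change of Ciz1 was -4.01 with an adjusted p of 0.128 at 5 FPKM, -4.01 (0.215) with no filter, -5.78 (0.258) with the pseudocount of 0.1, -4.01 (0.0618) with quantile normalization and -4.19 to -3.84 with each line left out. No direction reversed among the named genes, and 7 of their alternatives passed the threshold that the reported fit did not, 5 of them in the fit of 12 (Lgr5, Slc7a3, Gm14173, Nrn1 and Hmgn2-ps1), Rpl39l without S11 and Gm5566 without S08. Of the list medians 304 alternatives stayed within the spread between replicates and 4 did not. The filter settings tested 11775 and 35435 units in place of 19976; the cause of the other differences was not tested. No paired analysis was possible because WT and CIZ1 null lines share neither a replicate number nor an embryo. With 3 lines a group, 1 line per embryo and no read counts, changes smaller than the spread between adapted lines could not be told from 0.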

Other observations

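Chromosomes differed in how many of their units were higher or lower, which was noticed in these data and has no test. Of 613 units tested on chromosome 16, 39 were higher and 2 lower in CIZ1 null lines at an unadjusted p under 0.05, and of 1353 on chromosome 7, 33 were higher and 8 lower, where 1.83% of all units were higher and 2.2% lower. Over the 342 better expressed units of chromosome 16 the median of each line, relative to the mean of the 6, was -0.064, -0.001 and -0.331 in S07, S08 and S09 and 0.24, 0.184 and 0.027 in S10, S11 and S12. On chromosome 7 the same line, S09, was lowest at -0.422, while the other 5 lay between -0.038 and 0.204. S08 was highest for chromosome 4, at 0.272. The part of these line values in the single genes named on those chromosomes, such as Bdh1 and Chrd on 16 and Atf5 and Fuom on 7, was not tested.

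The X chromosome held 3.73% of the units tested, and 9 of the 39 units higher and 1 of the 22 units lower at an unadjusted p under 0.005. The higher ones were Slc7a3, Tsc22d3, Prps1, Gm6206, Gm6285, Gm15432, a unit with no symbol and 2 units of Gpm6b, and the lower one was Slc25a43. Prps1, a phosphoribosyl pyrophosphate synthetase, shares its locus with Tsc22d3 and was at 4.88, 3.73 and 3.58 FPKM in WT and 7.59, 9.38 and 10.3 FPKM in null lines. The median over the X-linked units was near 0, at 0.02, and in single lines -0.195 in S11 and 0.221 in S12.

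Of units with a change of 2 or more on the log2 scale, 105 were higher and 113 lower in null lines. The groups did not overlap in 42 and 52 of them, where 4.55% of all units were higher and 3.74% lower without overlap. Units picked for a large change in these same lines overlap less often for that reason, so the 2 shares are not alike. Most of the largest changes came from 1 or 2 lines. Dpt, a matrix protein gene, was at 0.336, 0.33 and 7.02 FPKM in WT and 133, 1.29 and 549 FPKM in null lines. Penk, the enkephalin precursor gene, was at 202, 34.1 and 1.72 against 0.458, 3.36 and 0.381 FPKM. Rpl39l, a ribosomal protein gene paralog, was listed at 0 in all WT lines and in S11 and was at 97.0 and 71.4 FPKM in S10 and S12. Pemt was listed at 0 in all null lines and in S07, with 871 and 126 FPKM in S08 and S09, and Gm5566 was at 129 and 155 FPKM in S07 and S09 and listed at 0 elsewhere. Gm7299 was at 4156 FPKM in S07 and listed at 0 in the other 5 lines, Gm27286 was at 55.3 FPKM in S08 and 42.0, 96.5 and 130 FPKM in the null lines, and Gm5045 at 16.5 FPKM in S09 and 54.8, 21.4 and 85.6 FPKM in the null lines. The values of these Gm units and of Rpl39l are uncertain where their reads can be split with near-identical copies elsewhere.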
